A study of Mus musculus with 6 samples.

Results

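The genes described here are the ligands, receptors and co-receptors of the vascular endothelial growth factor (VEGF) system, together with Ccbe1. They are 10 of the 40564 genes in the deposited tables, chosen by name: the ligand genes Vegfa, Vegfb, Vegfc and Pgf, the receptor genes Flt1, Kdr and Flt4, the co-receptor genes Nrp1 and Nrp2, and Ccbe1, which encodes a secreted factor needed to process VEGF-C. Flt1 and Ccbe1 were chosen because their counts in Cis KO and WT libraries had already been seen to differ, so their differences between genotypes are given below as values, with no p-value. The other members were chosen for their place in the pathway.

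The RNA came from untreated BALF cells, meaning cells recovered from mouse lungs by bronchoalveolar lavage, mostly airway immune cells. There were 2 libraries of each of 3 genotypes: WT, Cis KO (loss of CIS, the product of Cish, which restrains cytokine receptor signalling) and Cis Stat6 KO, labelled a double knockout, which lacks CIS and STAT6, the transcription factor activated by interleukin 4 and interleukin 13. Loss of CIS is therefore common to both mutant genotypes, and no genotype lacks STAT6 alone. The sources used here give no strain, sex or age, and do not say in which cells the genes were deleted. The labels do not say that replicates came from separate animals, so p-values measure only the spread between these libraries.

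VEGF ligands are secreted dimers that bind receptor tyrosine kinases on endothelial cells. FLT1 binds VEGF-A, VEGF-B and placental growth factor (the product of Pgf) and signals weakly, and its soluble form traps ligand. KDR carries the main growth signal of VEGF-A in blood vessels, and FLT4 that of VEGF-C in lymphatic vessels, where CCBE1 and the protease ADAMTS3 activate VEGF-C. Neuropilins, the products of Nrp1 and Nrp2, bind both VEGFs and semaphorins. Outside the endothelium, FLT1 is known as the VEGF receptor of monocytes and macrophages.

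Library totals ran from 50762354 to 65937118 counts. Levels are given as CPM, with library sizes adjusted by TMM factors (edgeR). Cish was at 46.2 and 56.2 CPM in the WT libraries, 4.35 and 3.52 in those of Cis KO and 1.72 and 5.04 in those of Cis Stat6 KO. Stat6 was at 31.6 and 25.5 CPM in Cis Stat6 KO against at least 221.1 elsewhere. The summed level of 10 alveolar macrophage markers was 13960 to 38980 CPM. Chil3 alone gave 6881 to 31130 CPM of this sum, so its range is not read as macrophage content. Siglecf was at 139.9 to 232.1 CPM. Chil3, Marco and Siglecf had at least 6804 counts in each library. Cis KO replicate 2 stood apart, with 3.29% of its counts on haemoglobin genes against at most 0.0366% elsewhere, 52.7 CPM over 7 B and plasma cell markers against at most 5.66, and 15855 genes with a count against at least 19641. Its 9 neutrophil and 10 epithelial markers summed to 537.7 and 317.9 CPM against at most 256.1 and 155.9 elsewhere. Values without this library are given beside the members' log2 fold changes. The neutrophil sum was 153.4 and 150.7 CPM in WT and 171.2 and 256.1 in Cis Stat6 KO. Monocyte and interstitial macrophage markers summed to 32.9 and 23.2 CPM in WT and 47.4 and 39.4 in Cis KO. In Cis Stat6 KO they summed to 24.2 and 12.2 CPM. The part of these cells in the members' levels was not tested.

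Of the 10 members, 8 passed the filter on low counts and were tested. Vegfc had 0 counts in all 6 libraries, which allows up to 0.0433 to 0.0685 CPM (3 counts per library, counting error only). Kdr had 0 counts in the WT and Cis KO libraries and 8 and 11 in Cis Stat6 KO. Flt1 and Ccbe1 were chosen for low values in the WT libraries, which both comparisons with WT use, so they are left out of the counts of calls that follow. Of the other 6 tested members edgeR called 0 (adjusted p under 0.05) in each comparison, beside 0.274%, 0.358% and 0.131% of all 16765 tested genes in Cis KO against WT, Cis Stat6 KO against Cis KO and Cis Stat6 KO against WT. At an unadjusted p under 0.05 there were 1, 1 and 0 of the 6, both times Nrp2, beside 11.1%, 18.3% and 5.36% of all tested genes. DESeq2 called 1, 1 and 0 of them, again Nrp2, beside 3.11%, 9.21% and 1.91% of all tested genes, and limma-voom 1, 0 and 0, beside 0.221%, 0.37% and 0.155%. The log2 fold changes of the 6 ran from -1.72 to 0.66, from -0.54 to 2.45 and from -0.29 to 1.01 in the same order.

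**Figure D1:**
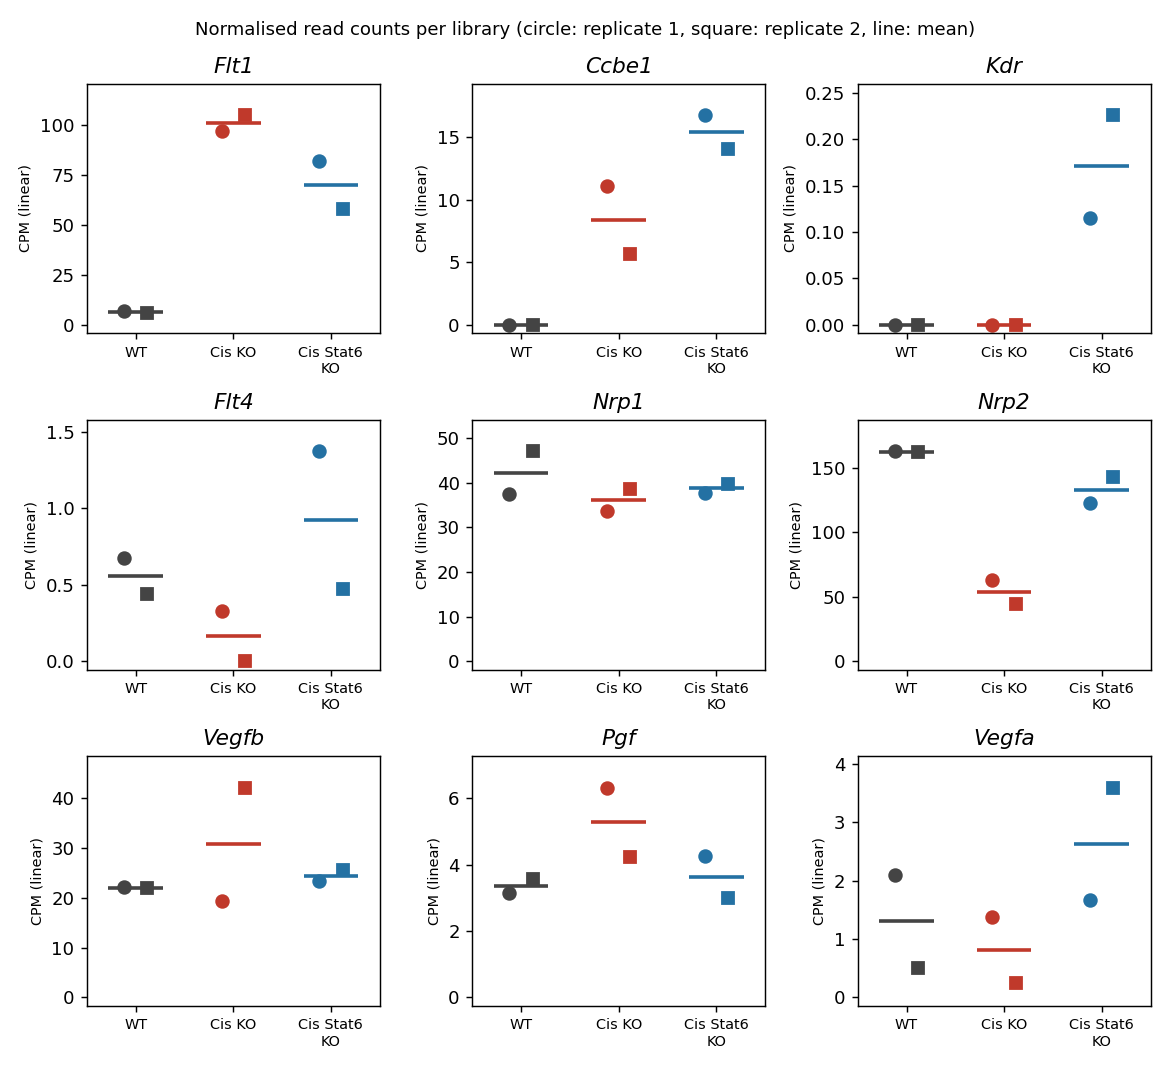
Normalised read counts (CPM, linear axes from 0) of 9 members in each of the 6 libraries by genotype, with circles for replicate 1, squares for replicate 2 and lines for the mean of 2 libraries. Flt1 and Ccbe1 were higher in all 4 mutant libraries than in WT, and Nrp2 was lowest in the 2 Cis KO libraries, at 62.7 and 44.55 CPM.

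Among the receptors, Flt1 (ENSMUSG00000029648, mm10, chr5:147561604-147726011, minus strand) was the gene with a high level in the mutants. It was at 7.04 and 5.89 CPM in WT, 97.0 and 104.8 in Cis KO and 81.7 and 58.1 in Cis Stat6 KO. All 4 mutant libraries lay above both WT libraries, and both Cis Stat6 KO libraries lay below both Cis KO libraries. The mean was 6.46 ± 0.813 CPM (SD, n = 2) in WT, 100.9 ± 5.49 in Cis KO and 69.9 ± 16.7 in Cis Stat6 KO. As log2 fold changes these were 3.97 ± 0.26 (SE) for Cis KO against WT, 3.43 ± 0.25 for Cis Stat6 KO against WT and -0.53 ± 0.23 for Cis Stat6 KO against Cis KO. These 3 comparisons share their libraries, so they are not separate observations of the gene. Without Cis KO replicate 2 the change of Cis KO against WT was 3.91 and that of Cis Stat6 KO against Cis KO -0.48. Ordered by CPM among all genes of a library, Flt1 ranked 9038 and 9418 in WT, 1719 and 1688 in Cis KO, and 2130 and 2885 in Cis Stat6 KO.

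The files give 1 count per gene, so the membrane and soluble forms of FLT1 were not told apart. GENCODE release M21 lists 6 Flt1 transcripts, of which 2 are coding, with 6895 and 6292 bases. The Flt1 promoter, 250 bases before to 50 after the start in RefSeq (GRCm38.p6, chr5:147725962-147726261, minus strand), is shown because Flt1 was the receptor gene with clear counts and a large difference. Capitals mark matches to GGGCGG, the core of an SP1 site (printed here as its reverse complement), and to TGACGTCA, the cAMP response element. The Nrp2 promoter (GRCm38.p6, chr1:62703067-62703366, plus strand) is set beside it because Nrp2 differed in the opposite direction.
Flt1: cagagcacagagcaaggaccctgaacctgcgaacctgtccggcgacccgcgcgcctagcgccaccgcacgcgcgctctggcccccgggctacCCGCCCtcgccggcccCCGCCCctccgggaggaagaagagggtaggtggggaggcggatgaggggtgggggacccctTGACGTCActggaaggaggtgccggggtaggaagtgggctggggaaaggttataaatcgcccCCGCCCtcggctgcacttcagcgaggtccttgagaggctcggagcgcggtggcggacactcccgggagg
Nrp2: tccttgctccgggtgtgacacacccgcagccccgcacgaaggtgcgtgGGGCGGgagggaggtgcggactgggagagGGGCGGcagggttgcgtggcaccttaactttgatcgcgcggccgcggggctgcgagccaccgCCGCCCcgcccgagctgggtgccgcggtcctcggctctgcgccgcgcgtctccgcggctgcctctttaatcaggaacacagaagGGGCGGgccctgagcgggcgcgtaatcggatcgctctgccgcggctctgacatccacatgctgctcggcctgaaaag

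The Flt1 window held 3 separate matches to GGGCGG and 1 to TGACGTCA, and the Nrp2 window 4 and 0, with both strands searched. Of 32851 promoters of this length, 35.7% held GGGCGG and 1.79% held TGACGTCA, which was searched after the Flt1 sequence had been read. The STAT-type motifs TTCNNNGAA and TTCNNNNGAA, both palindromic, were found in 8.3% and 6.95% of all promoters and in neither window. RefSeq promoters were matched for 9 members, and those of all 9 lacked both STAT-type motifs. ACGTG, 1 form of the hypoxia response core, was present in 19.6% of all promoters. It was found in 1 of the 2 Vegfa promoters and in no promoter of the other 8. The form GCGTG was not searched. The GC content was 70.7% in both windows, against a median of 52.7%.

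Genes beside Flt1 were examined by their nearest tested neighbours, 5 on each side. On the side of lower coordinates Pan3, a subunit of a poly(A) nuclease, was at 30.2 and 30.4 CPM in WT, 23.3 and 9.43 in Cis KO and 24.4 and 21.8 in Cis Stat6 KO, and the predicted gene Gm43460 stayed at or below 0.781 CPM. On the other side Pomp, a proteasome assembly factor, ranged from 80.6 to 107.1 CPM over the 6 libraries, and Slc46a3, a lysosomal transporter, from 11.2 to 17.9. Their log2 fold changes in Cis KO against WT were -0.88 ± 0.40, 1.17 ± 1.23, 0.07 ± 0.19 and 0.52 ± 0.22. All were smaller than that of Flt1, which had been chosen for its difference. Their edgeR adjusted p were 0.456, 0.693, 0.897 and 0.449. Of the 10 neighbours edgeR called 1 in this comparison, beside 0.274% of all tested genes. This was the predicted gene Gm10167, named after its value was seen. It went in the opposite direction to Flt1, at -2.71 ± 0.29 (edgeR adjusted p = 0.0352).

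Kdr and Flt4, the other receptors, were near the limit of detection. The 19 Kdr counts of Cis Stat6 KO correspond to 0.116 and 0.226 CPM. With 3 counts over each group of 0 as the floor, their mean was 7.2-fold the WT floor and 6.14-fold the Cis KO floor. These floors cover counting error only. Kdr did not pass the filter on low counts and was not tested. Flt4 had 39 and 30 counts in WT, 21 and 0 in Cis KO and 95 and 23 in Cis Stat6 KO, or at most 1.37 CPM. The Cis KO libraries lay below those of WT, whose range overlapped that of Cis Stat6 KO. Its log2 fold changes of -1.72 ± 1.63 in Cis KO against WT and 2.45 ± 1.67 in Cis Stat6 KO against Cis KO had edgeR adjusted p of 0.666 and 0.457. Without Cis KO replicate 1, which leaves in that group only a library with 0 Flt4 counts, they were -8.01 and 8.74. Without Cis KO replicate 2 they were smaller, at -0.75 and 1.49. Per length, Flt1 made up 86.0% and 89.1% of the summed FPKM of the 3 receptors in WT and 97.2% to 100% in the mutants.

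Flt1 and Kdr are receptor genes of blood endothelial cells and Flt4 of lymphatic ones, and the blood endothelial markers were low. Of 12 blood endothelial markers 4 had 0 counts in every library, among them Tie1, Emcn and Robo4, and Cdh5, which encodes VE-cadherin, had 0 counts in 5 libraries and 4 in Cis Stat6 KO replicate 2. The 12 markers summed to 0.638 and 0.248 CPM in WT, 1.31 and 5.07 in Cis KO and 1.43 and 2.43 in Cis Stat6 KO, of which Pecam1, also made by leukocytes, was the most abundant in 4 of 6 libraries. This sum was higher in each mutant library than in both WT libraries, as Flt1 was. Flt1 alone was 11.03-fold to 73.9-fold the sum in each library. The 6 lymphatic endothelial markers summed to 1.89 to 4.45 CPM in WT and Cis KO and to 15.98 and 8.51 in Cis Stat6 KO, where Pdpn gave 12.8 and 6.60 CPM. The part of blood or lymphatic endothelial cells in these levels and in that of Flt1 was not tested. In bulk RNA, fewer cells of a type and less RNA per cell cannot be told apart.

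**Figure D2:**
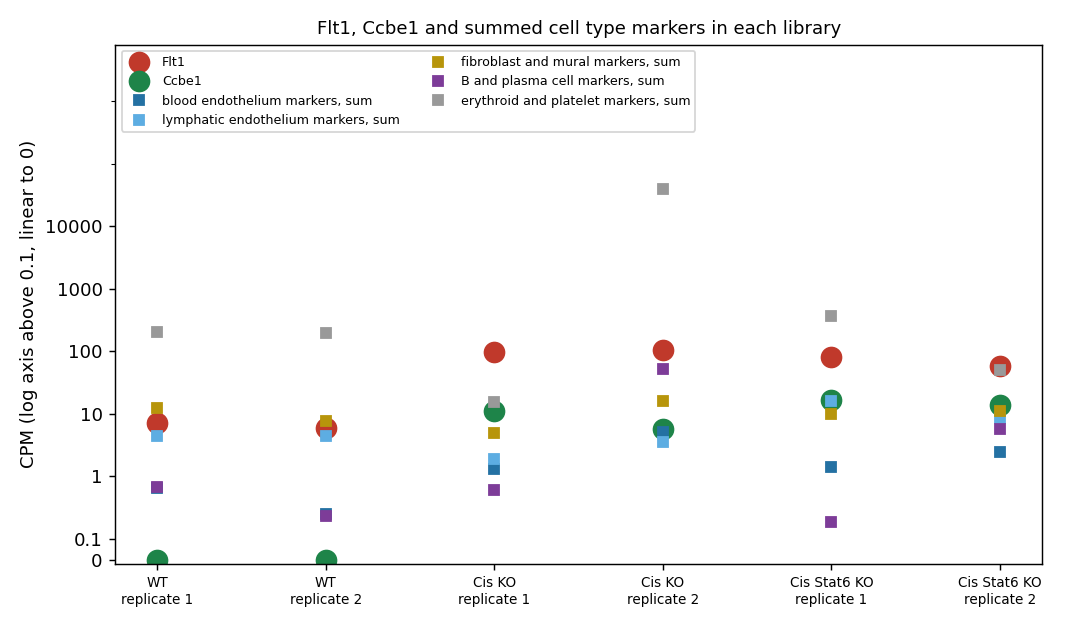
CPM (log axis above 0.1, linear to 0) of Flt1 and Ccbe1 (circles) and the summed CPM of 5 lists of cell type markers (squares) in each library. The 12 blood endothelial markers together stayed at or below 5.07 CPM, under Flt1 in all 6 libraries, while the erythroid and B cell sums were highest in Cis KO replicate 2.

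Ccbe1 (ENSMUSG00000046318, mm10 chromosome 18, minus strand) went from no counts in WT to clear counts in the mutants. It had 0 and 0 counts in WT, 711 and 248 in Cis KO and 1160 and 683 in Cis Stat6 KO, or 11.1, 5.66, 16.8 and 14.0 CPM in these 4 mutant libraries. Both Cis Stat6 KO libraries lay above both Cis KO libraries. With 3 counts over the WT group as the floor, 0.0237 CPM, the mean of Cis KO (8.39 ± 3.85 CPM, SD, n = 2) was 353-fold this floor. The mean of Cis Stat6 KO (15.4 ± 1.92) was 649-fold this floor. The floor covers counting error only, so these ratios leave out the spread between libraries. Cis Stat6 KO against Cis KO gave a log2 fold change of 0.875 ± 0.42, which was 0.46 without Cis KO replicate 2 and 1.45 without Cis KO replicate 1.

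Reads were also counted between the exons of Ccbe1. Gm50143 is annotated as a sense intronic gene of 2 exons and 979 exonic bases on the same strand, within the span of Ccbe1, and shares 0 bases with its exons. It was singled out after its values were seen. Of the 10 tested neighbours of Ccbe1 it was the 1 called in Cis KO against WT, beside 0.274% of all tested genes. It had 0 counts in both WT libraries, 275 and 337 in Cis KO and 764 and 485 in Cis Stat6 KO. Like Ccbe1 it was detected in 4 of 4 mutant libraries and in 0 of 2 WT libraries. The ratio of its counts to those of Ccbe1 was 0.387 and 1.36 in Cis KO and 0.659 and 0.71 in Cis Stat6 KO, so Cis KO replicate 2 held more intronic than Ccbe1 counts. No source used here says how reads were assigned where genes overlap. The antisense gene Gm15958, which overlaps the start of Ccbe1, had 0 counts in every library.

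**Figure D3:**
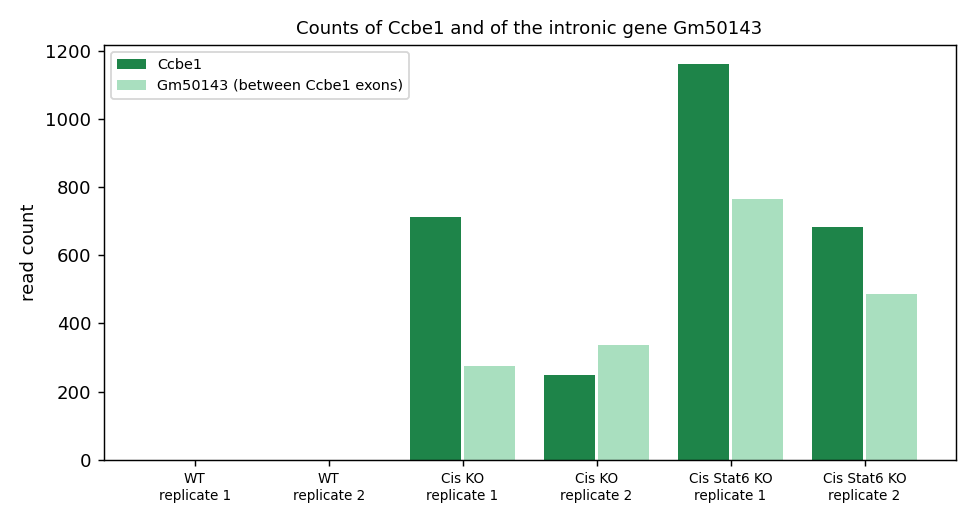
Read counts (linear axis from 0) of Ccbe1 and of Gm50143, a gene annotated between the exons of Ccbe1, in each library. Both had 0 counts in the 2 WT libraries and at least 248 in the 4 mutant libraries.

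Markers of fibroblasts and mural cells, which lavage could carry along, were read beside Ccbe1. The 10 markers summed to 12.2 and 7.75 CPM in WT, 4.92 and 15.8 in Cis KO and 9.87 and 11.04 in Cis Stat6 KO, ranges that overlap between genotypes. All 10 had counts in some library, and they did not move together. The collagen gene Col1a1 had 21 and 9 counts in WT, 0 and 0 in Cis KO and 12 and 8 in Cis Stat6 KO, and Col1a2 had 9 and 0, 19 and 35, and 25 and 6. The pericyte marker Cspg4 had 32 and 4 counts in WT, 129 and 325 in Cis KO and 26 and 4 in Cis Stat6 KO, so it was higher in Cis KO than in WT, as Ccbe1 was. Col1a2 and Cspg4 were named after their values were seen. The part of these cells in the level of Ccbe1 was not tested. Adamts3, the protease that works with CCBE1, did not pass the filter, and the lymphatic ligand genes Vegfc and Vegfd stood at 0 and at most 0.468 CPM.

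The co-receptor gene Nrp2 (ENSMUSG00000025969, mm10, chr1:62703285-62818695, plus strand) was low in Cis KO and near the WT level in Cis Stat6 KO, although neither difference passed the threshold in edgeR with the settings used throughout. It was at 162.6 and 162.2 CPM in WT, 62.7 and 44.55 in Cis KO and 122.3 and 142.6 in Cis Stat6 KO. The Cis KO libraries lay below the other 4, and the Cis Stat6 KO libraries lay below those of WT. The log2 fold change was -1.60 ± 0.22 in Cis KO against WT and 1.30 ± 0.22 in Cis Stat6 KO against Cis KO, with edgeR adjusted p of 0.0624 and 0.0864. Against WT, Cis Stat6 KO was at -0.29 ± 0.22, with an edgeR adjusted p of 1.0. DESeq2 called the first 2 differences (adjusted p 5.31e-09 and 4.47e-06), and limma-voom called the first of them (0.0417). Over all alternatives the adjusted p ranged up to 0.398 and 0.611, and the change itself from -1.88 to -1.37 and from 1.07 to 1.58. Without Cis KO replicate 2 the 2 changes were -1.37 and 1.07, and without Cis KO replicate 1 they were -1.88 and 1.58. Each of these fits leaves 1 library in that group. With no filter on low counts edgeR called both (adjusted p 3.18e-08 and 1.47e-05), beside 1021 and 1840 of all 26200 genes tested there. When genes were kept only at 1 CPM or more in 2 or more libraries, the first was called (0.0496) and the second was not (0.0677). All calls with that filter were 53 and 65 of 12651 genes. The gene model Gm37121 inside the Nrp2 span, on the same strand, had 30 and 35 counts in WT, 7 and 0 in Cis KO and 17 and 21 in Cis Stat6 KO.

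Nrp1 (ENSMUSG00000025810, mm10, chr8:128358604-128462081, plus strand) differed little between genotypes. It was at 37.5 and 47.1 CPM in WT, 33.7 and 38.6 in Cis KO and 37.7 and 39.8 in Cis Stat6 KO, and the genotypes overlapped. Its log2 fold changes of -0.23 ± 0.20, 0.10 ± 0.20 and -0.13 ± 0.20 in Cis KO against WT, Cis Stat6 KO against Cis KO and Cis Stat6 KO against WT had edgeR adjusted p of 0.647, 0.825 and 1.0. Without Cis KO replicate 2 the first 2 were -0.32 and 0.19. Per length, the ratio of Nrp1 to Nrp2 FPKM was 0.279 and 0.351 in WT, 0.651 and 1.05 in Cis KO and 0.374 and 0.338 in Cis Stat6 KO. The ratio was highest in the 2 Cis KO libraries.

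**Figure D4:**
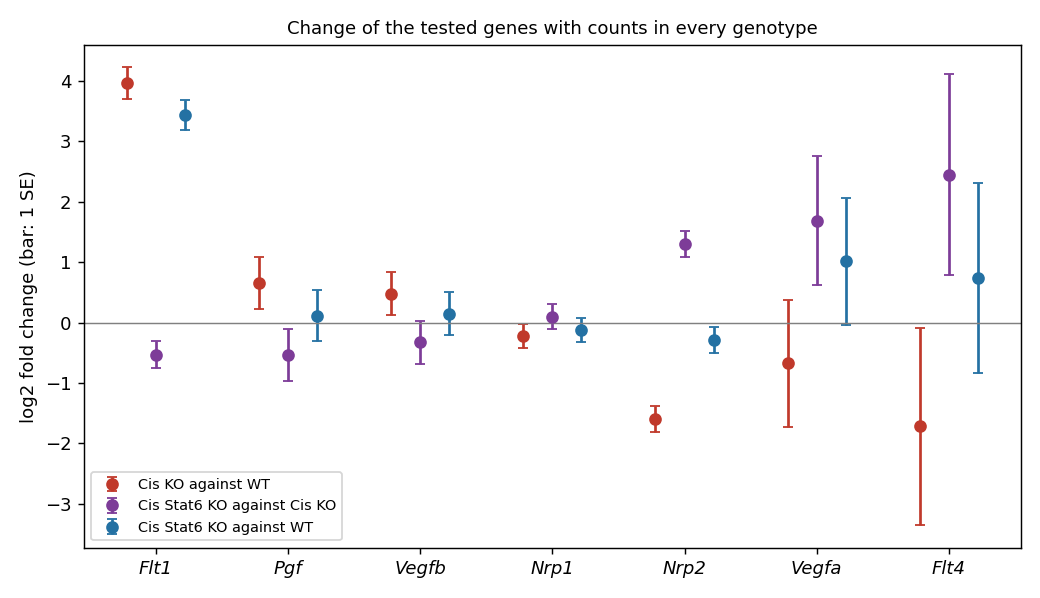
Log2 fold changes (bars are 1 SE, edgeR, 2 libraries per genotype) of the 7 tested members with counts in every genotype, in the 3 comparisons. Flt1 stood near 4 in Cis KO against WT (3.97) and Nrp2 was negative there (-1.60) and positive in Cis Stat6 KO against Cis KO (1.30), while the SE of Vegfa and Flt4 exceeded 1.

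Among the ligands, Vegfb was the most abundant and Vegfa was scarce. Vegfb (ENSMUSG00000024962, mm10, chr19:6982473-6987651, minus strand) was at 22.2 and 21.9 CPM in WT, 19.3 and 42.1 in Cis KO and 23.4 and 25.5 in Cis Stat6 KO. Only Cis KO replicate 2, the library rich in haemoglobin RNA, stood out. The log2 fold change of Cis KO against WT was 0.48 ± 0.36 (edgeR adjusted p = 0.577) and -0.19 without that library. Without Cis KO replicate 1, which leaves only that library in the group, it was 0.92. In Cis Stat6 KO against Cis KO it was -0.33 ± 0.36 with both libraries, 0.33 without replicate 2 and -0.775 without replicate 1.

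Pgf (ENSMUSG00000004791, mm10, chr12:85166635-85177790, minus strand), a ligand of FLT1 alone among the VEGF receptors, was at 3.14 and 3.55 CPM in WT, 6.31 and 4.22 in Cis KO and 4.26 and 2.98 in Cis Stat6 KO. Both Cis KO libraries were above WT, at a log2 fold change of 0.66 ± 0.43 (edgeR adjusted p = 0.535), and the Cis Stat6 KO libraries overlapped both other genotypes. Cis Stat6 KO against Cis KO gave -0.54 ± 0.43 (edgeR adjusted p = 0.522). These values were 0.92 and -0.81 without Cis KO replicate 2 and 0.32 and -0.21 without Cis KO replicate 1. Vegfa (ENSMUSG00000023951, mm10, chr17:46016993-46032369, minus strand), the main ligand of KDR, was at 2.105 and 0.512 CPM in WT, 1.38 and 0.251 in Cis KO and 1.68 and 3.60 in Cis Stat6 KO. Its replicates differed by 4.12-fold, 5.48-fold and 2.15-fold in these genotypes. The log2 fold changes of Vegfa, -0.67 ± 1.05, 1.69 ± 1.07 and 1.01 ± 1.05 in Cis KO against WT, Cis Stat6 KO against Cis KO and Cis Stat6 KO against WT, had edgeR adjusted p of 0.793, 0.426 and 1.0. The first 2 were 0.08 and 0.92 without Cis KO replicate 2 and -2.38 and 3.385 without Cis KO replicate 1 (edgeR adjusted p 0.135 and 0.0531).

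Leaving Flt1 and Ccbe1 aside, 3 of the 6 tested members had libraries that did not overlap between Cis KO and WT, 1 higher (Pgf) and 2 lower (Nrp2, Flt4). Of all tested genes 47.4% did not overlap in that comparison, 21.4% higher and 25.9% lower, so a count of this size is no result about the members. Between Cis Stat6 KO and Cis KO it was 3 of 6, all higher, beside 50.4% of all tested genes (27.9% higher and 22.5% lower). Between Cis Stat6 KO and WT it was 2 of 6, with 1 higher and 1 lower, beside 46.8% (23.3% higher and 23.5% lower).

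Levels of different genes can be compared per length, in FPKM. In WT the order was Vegfb (12.9 ± 0.219 FPKM, SD, n = 2) and Nrp2 (12.9 ± 0.134), whose libraries overlapped, then Nrp1 (4.06 ± 0.622), Pgf (1.075 ± 0.0919), Flt1 (0.45 ± 0.0566), Vegfa (0.285 ± 0.2475) and Flt4 (0.065 ± 0.0212), with Kdr, Vegfc and Ccbe1 listed at 0. Flt1 and Vegfa also overlapped. In Cis KO, Flt1 (6.53 ± 0.735) stood directly below Vegfb (16.05 ± 6.003) and above Nrp2 (4.05 ± 1.61), which overlapped Nrp1 (3.215 ± 0.233), and Ccbe1 reached 0.705 ± 0.431. The order in Cis Stat6 KO was Vegfb (13.7 ± 0.6505), Nrp2 (10.05 ± 0.0212), Flt1 (4.74 ± 1.61) and Nrp1 (3.575 ± 0.2475), with Flt1 and Nrp1 overlapping, followed by Ccbe1 (1.29 ± 0.297) and Pgf (1.135 ± 0.403), which overlapped. Vegfb held 82.9% to 94.6% of the summed FPKM of the 4 ligands in every library. With the summed counts as the library total, the FPKM of Flt1 correspond to a length of 14658 to 15104 bases. This is near the 13504 bases of all its exons joined, which is longer than either coding transcript. The level per coding transcript length was therefore higher than FPKM show. Every member with such a length exceeded its joined exons by a similar factor, such as Vegfb (1743 to 1792 against 1605) and Nrp2 (12860 to 13208 against 11842). A different library total in the FPKM would shift all these lengths alike, so the excess is not read as a gene length.

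**Figure D5:**
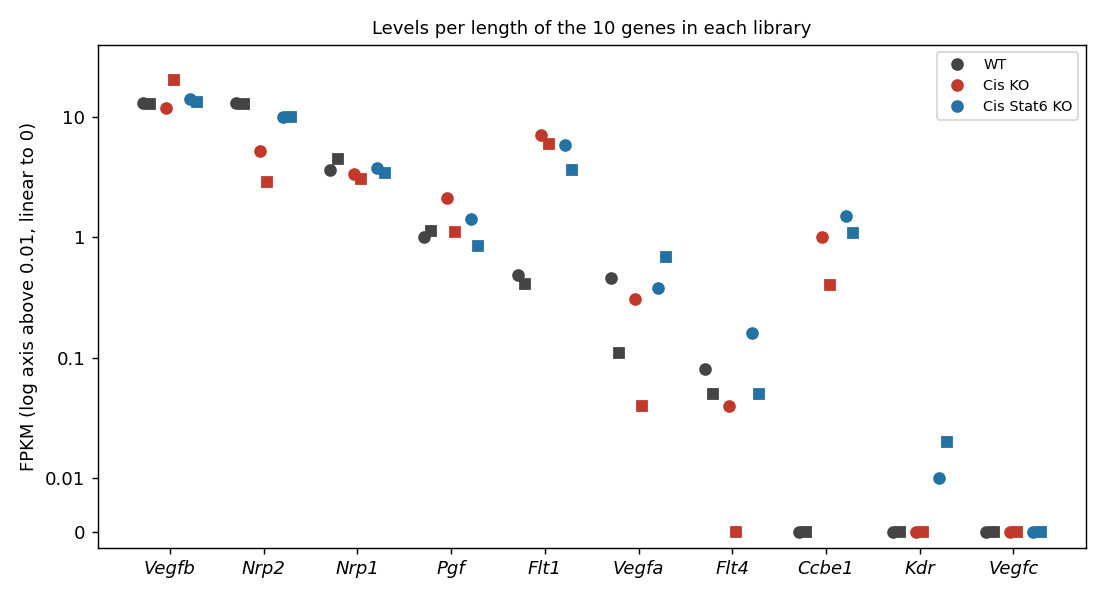
FPKM (log axis above 0.01, linear to 0) of the 10 members in each library, coloured by genotype. Flt1 lay between 0.41 and 0.49 in WT and between 3.6 and 7.05 in the mutants, crossing the level of Nrp1, while Vegfb stayed between 11.8 and 20.3.

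Genes with profiles like those of Flt1 and Ccbe1 were found by the Pearson correlation of log2(CPM + 0.5) over the 6 libraries, among 9537 genes. Between them the 2 genes had r = 0.943, but both were chosen for low values in WT, so this r is no separate result. Among the mutants their order was opposite, with Flt1 lower and Ccbe1 higher in Cis Stat6 KO than in Cis KO. The profiles most like Flt1 were those of Spint1, a protease inhibitor (r = 0.995, 1.30 to 56.2 CPM), Def8 (0.994, 57.9 to 91.2 CPM), Rsph3b (0.99, 11.6 to 31.6 CPM), Lta4h, the leukotriene A4 hydrolase that makes leukotriene B4 (0.988, 69.5 to 129.9 CPM), and Asb4 (0.987, 3.54 to 9.32 CPM). Those most like Ccbe1 were Gpr55, a lysophospholipid receptor (0.999, 1.79 to 51.3 CPM), Prune2 (0.996, 14.3 to 52.0 CPM), Mamdc2 (0.995, 0.19 to 46.7 CPM), Zfp280b (0.99, 0.0863 to 5.80 CPM) and Car9, a carbonic anhydrase (0.988, 0.121 to 6.19 CPM). The likeness is one of shape, since Def8 varied far less in size than Flt1. In all, 70 candidates had r above 0.9 with Flt1 and 71 with Ccbe1, or 0.734% and 0.744%.

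The wider pathway was read from lists of genes that are not members. Of 42 tested genes of signalling below the receptors (phospholipase C gamma, PI3 kinase, RAS, MAP kinases and others), edgeR called 0 in each comparison, and 8, 9 and 3 had an unadjusted p under 0.05 in Cis KO against WT, Cis Stat6 KO against Cis KO and Cis Stat6 KO against WT. The unadjusted shares over all tested genes were 11.1%, 18.3% and 5.36%. DESeq2 called 2, 6 and 0 of the 42, beside 3.11%, 9.21% and 1.91% of all tested genes, and limma-voom 0. The medians were 0.04, -0.03 and -0.02 on the log2 scale, beside -0.05, 0.05 and -0.003 for all tested genes. Pik3ca, the catalytic subunit p110 alpha, was at 42.3 and 43.4 CPM in WT, 27.3 and 27.5 in Cis KO and 47.4 and 46.2 in Cis Stat6 KO. Its Cis KO libraries lay below the other 4, with edgeR adjusted p of 0.358 against WT and 0.138 against Cis Stat6 KO. Bad and Rac2 went the other way. Bad was at 17.8 and 18.0 CPM in WT, 28.4 and 49.9 in Cis KO and 19.4 and 17.2 in Cis Stat6 KO. Rac2 was at 201.2 and 172.4 CPM in WT, 209.6 and 346.3 in Cis KO and 144.1 and 129.5 in Cis Stat6 KO. The edgeR adjusted p was 0.344 for Bad in Cis KO against WT and 0.169 for Rac2 in Cis Stat6 KO against Cis KO.

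Of 8 tested partners of the neuropilins (plexins, class 3 semaphorins and Gipc1), edgeR called 0 in each comparison. At an unadjusted p under 0.05 there were 2, 4 and 1, beside 11.1%, 18.3% and 5.36% of all tested genes. DESeq2 called 1, 4 and 1, beside 3.11%, 9.21% and 1.91%, and limma-voom 1, 0 and 0, beside 0.221%, 0.37% and 0.155%. Plxnd1, a semaphorin receptor, followed the order of Nrp2, at 301 and 269 CPM in WT, 117 and 110.6 in Cis KO and 261.2 and 213.1 in Cis Stat6 KO. The log2 fold change was -1.32 ± 0.18 in Cis KO against WT and 1.06 ± 0.18 in Cis Stat6 KO against Cis KO, with edgeR adjusted p of 0.0624 and 0.09. Gipc1 went the other way, at 54.6 and 48.1 CPM in WT, 56.9 and 104.5 in Cis KO and 37.1 and 36.4 in Cis Stat6 KO. Its log2 fold change in Cis Stat6 KO against Cis KO was -1.13 ± 0.30 (edgeR adjusted p = 0.174). Sema3e, a ligand of plexin D1, had no counts in either Cis Stat6 KO library or in Cis KO replicate 2, and was at 3.92 and 12.1 CPM in WT and 6.96 in Cis KO replicate 1.

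In the list of hypoxia genes 15 were tested, and edgeR called 0 in each comparison. At an unadjusted p under 0.05 there were 5, 6 and 1, beside 11.1%, 18.3% and 5.36% of all tested genes. DESeq2 called 2, 4 and 1, beside 3.11%, 9.21% and 1.91%, and limma-voom 0. Epas1, which encodes the oxygen-regulated factor HIF-2 alpha, was at 3.985 and 4.11 CPM in WT, 17.5 and 32.8 in Cis KO and 6.47 and 7.67 in Cis Stat6 KO. Both Cis KO libraries were the highest, and the log2 fold change of 2.63 ± 0.36 against WT had an edgeR adjusted p of 0.0624. Hif1a was lowest in Cis KO, at 139.8 and 56.1 CPM against 207.8 and 189.5 in WT and 268.7 and 309.1 in Cis Stat6 KO. Its log2 fold change in Cis Stat6 KO against Cis KO was 1.56 ± 0.40, with an edgeR adjusted p of 0.168. Car9, a hypoxia-induced gene, was at 0.121 and 0.248 CPM in WT, 3.16 and 2.76 in Cis KO and 6.18 and 6.19 in Cis Stat6 KO, with edgeR adjusted p of 0.0641 and 0.0512 for the mutants against WT.

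Of 10 tested genes of other angiogenic factors and receptors edgeR called 0, 1 (Thbs1) and 0 in Cis KO against WT, Cis Stat6 KO against Cis KO and Cis Stat6 KO against WT. The edgeR shares over all tested genes were 0.274%, 0.358% and 0.131%. At an unadjusted p under 0.05 there were 3, 4 and 2, beside 11.1%, 18.3% and 5.36% of all tested genes. DESeq2 called 2, 4 and 2, beside 3.11%, 9.21% and 1.91%, and limma-voom 0 in each. Thbs1 encodes thrombospondin 1, an inhibitor of angiogenesis, and was at 3.90 and 2.35 CPM in WT, 0.969 and 0.548 in Cis KO and 35.5 and 16.8 in Cis Stat6 KO. It rose by 5.09 ± 0.57 (log2, SE) from Cis KO to Cis Stat6 KO (edgeR adjusted p = 0.0313). No gene of the list was called there with limma-voom, with only the compared groups in the fit, with log2(FPKM + 1) unfiltered, without scaling factors, or without either Cis Stat6 KO library. Fgf1 was at 9.765 and 7.26 CPM in WT and at most 2.74 in the mutants, with an edgeR adjusted p of 0.488 for Cis Stat6 KO against WT. The 5 tested genes of the VEGF-C and VEGF-D side had 0 calls by edgeR, DESeq2 and limma-voom in each comparison. At an unadjusted p under 0.05 there were 0, 0 and 1 of them, beside the same shares of all tested genes. Among them Lyve1, a hyaluronan receptor of lymphatic vessels and some macrophages, had 0 counts in WT and 0.549 and 0.555 CPM in Cis Stat6 KO.

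The class III receptor tyrosine kinases, the nearest relatives of the VEGF receptors, had 0 of 5 genes called by edgeR, DESeq2 and limma-voom in each comparison. At an unadjusted p under 0.05 there were 0, 0 and 2 of them, beside 11.1%, 18.3% and 5.36% of all tested genes. Csf1r, the receptor that macrophages need to survive, stood between 254.6 and 408.5 CPM in the 6 libraries, with a log2 fold change of -0.535 ± 0.20 in Cis Stat6 KO against WT (edgeR adjusted p = 0.828). Flt3, which lies on chromosome 5 near Flt1, was at most 0.234 CPM in WT and Cis KO and 1.39 and 1.152 in Cis Stat6 KO. Pdgfra, Pdgfrb and Kit stayed at or below 2.90 CPM.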

How the data were processed

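Raw read counts per gene were deposited by the authors for 6 libraries, along with FPKM values (per the file headers), rounded to 0.01. The build is mm10, per the submitters' processing notes. The sources used here name no aligner, counting tool or strand setting. Counts were tested with edgeR 4.0.16 (R 4.3.3): 1 fit of all 6 libraries on genotype without a block, TMM scaling, filterByExpr (16765 genes kept), the quasi-likelihood F test, two-sided, and Benjamini-Hochberg adjustment over all tested genes. The SE of a log2 fold change is its size over the square root of F. With 3 residual degrees of freedom and a common biological coefficient of variation of 50.3%, the spread between replicates, not depth, limits most genes. Alternatives used DESeq2 1.42.0, limma 3.58.1 (voom, and trend on log2 FPKM), other scalings and filters, a replicate block and each library left out. The members, lists and rules were chosen with earlier results of these data known. Named were all members, called or otherwise the 2 lowest-p genes per list and comparison (shown in part), the first 3 markers per list (in part), the 2 nearest neighbours of Flt1 on each side, and the 5 profiles most like Flt1 and Ccbe1.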

Additional observations from a re-analysis of the deposited data

How the results depend on the processing

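In the order Cis KO against WT, Cis Stat6 KO against Cis KO and Cis Stat6 KO against WT, edgeR called 46, 60 and 22 genes. The counts were 522, 1544 and 320 with DESeq2, 1021, 1840 and 385 without a filter, 6, 5 and 277 with only the compared groups in the fit, 24, 28 and 12 with the replicate block, 74, 191 and 52 with log2(FPKM + 1), and 2, 2 and 1 with that scale unfiltered. With log2(FPKM + 0.1) the last 2 were 99 and 35, and without scaling factors, an alternative added after the data were seen, the first 2 were 26 and 29. Leaving out 1 library gave 3 to 5349, 4 to 5999 and 0 to 350. The highest values of the first 2 came without Cis KO replicate 1. Leaving out a library leaves 1 sample in its group, which is assumed to vary like the other groups.

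Of the members 2, 0 and 2 were called, beside 0.274%, 0.358% and 0.131% of all tested genes. Flt1 and Ccbe1 are counted here only to show how calls depend on the settings. The called members were these 2 genes, whose choice used the WT libraries, so the counts are no evidence of a difference. limma-voom also called 2 in Cis KO against WT, but these were Flt1 and Nrp2, without Ccbe1. In Cis KO against WT the number was 1 with only the compared groups, 1 with log2(FPKM + 1), 1 with log2(FPKM + 0.1), 0 with log2(FPKM + 1) unfiltered and 0 to 5 over the libraries left out, with 0 without WT replicate 1 or 2 and 1 (Flt1) without Cis Stat6 KO replicate 1 or 2. In Cis Stat6 KO against Cis KO it was 1 (Nrp2) with DESeq2, 1 without a filter and 0 to 4 over the libraries left out. In Cis Stat6 KO against WT it was 1 with limma-voom and with either filtered FPKM scale, 0 with the unfiltered scale and 0 to 2 over the libraries left out, 0 without either Cis Stat6 KO library or WT replicate 2. The cause was not tested.

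Direction reversed for 7 values that edgeR had not called, with 1 library left out each time. Against WT in Cis KO, Vegfa ranged from -2.382 to 0.67 (reversed without WT replicate 1, and at 0.08 without Cis KO replicate 2) and Vegfb from -0.19 (without Cis KO replicate 2) to 0.917. Against Cis KO in Cis Stat6 KO, Vegfb ranged from -0.775 to 0.33 (without Cis KO replicate 2). Against WT in Cis Stat6 KO, Flt4 ranged from -0.245 to 1.302 and Pgf from -0.18 to 0.349 (both reversed without Cis Stat6 KO replicate 1), and Nrp1 from -0.289 to 0.049 (without WT replicate 2). The replicate numbers share no stated origin, and differences between replicates correlated by -0.065 to 0.013 between genotypes, so the numbers were not taken to pair samples. With the replicate block, 24, 28 and 12 genes and 2, 0 and 2 members were called.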
